A study of Mus musculus with 12 samples.

Results

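The subject is a set of 37 genes of DNA break repair: those of homologous recombination, the Fanconi pathway, end joining, mismatch repair and the DNA damage checkpoint. They were chosen by name, and a gene was tested where at least 1 of its probes had a detection p under 0.05 on 3 or more of the 12 arrays. Of the 37 genes, 28 met this, out of 9566 genes tested in all. The other 9 were Brca1, Nbn, Exo1, Rad21, Xrcc5, Fancb and Atr, whose probes were not detected on enough arrays, and Xrcc2 and Rbbp8, for which no annotated probe was found here.

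The RNA came from mouse CD4 T cells sorted by how often they had divided, and it was read on Illumina bead arrays. The donors' naive CD4 cells carried DO11.10, a transgenic T cell receptor for a peptide of ovalbumin (OVA). They were labelled with CFSE, a dye that is diluted at each division, and moved into Balb/c hosts, which then received OVA peptide in CFA, an oil adjuvant with killed mycobacteria. Lymph node cells were taken 66 to 72 h later and sorted by their dye. The 4 groups are named D3, D4, D6 and D8, and by their cell type labels these effectors had gone through 2, 3, 5 and 7 divisions. Each had 3 arrays, 1 from each of experiments 1, 2 and 3. Every group had the same receptor, host strain, immunization and harvest window. There was no undivided group, the labels name no gate on the transferred receptor, and they do not say whether hosts were pooled. The study set D4, which readily gave memory cells after transfer, against the other divisions.

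Between 15563 and 16666 probes were detected on each array. Of 11 T cell marker genes, 9 had a probe and 8 were measured. The summed linear level of all 9 was 43020 to 43830 in D8 arrays and 51850 to 53820 in D3 arrays. Of 9 B cell markers, 7 had a probe, and the sums over all 7 were 242.3 to 313.4 in D8 and 362.9 to 582.4 in D3. These include Blnk, Ms4a1 and Pax5, which were not detected, and the other 4 were measured. The 4 did not move together: Cd72 fell by 2.15 ± 0.27, Cd22 rose by 1.72 ± 0.31 (limma adjusted p 6.21e-04) over a D3 mean of 4.57 that is close to background, and Cd79b (-0.26) and Ebf1 (0.18) were not called, for a median of -0.04. None of 3 germinal centre B cell markers with a probe was detected. In the myeloid list 2 of 8 markers were detected. The sum over all 8, most of them not detected, was 211.1 to 285.3 in D8 arrays and 179.2 to 225.1 in D3 arrays. Of 2 CD8 T cell markers Cd8a was not detected, and the summed level of both was 2326 to 2877 in D8 arrays and 2636 to 3882 in D3 arrays. Cd8b1 had -0.36 ± 0.15 and was not called (limma adjusted p 0.075), but was with the experiment as a block (0.0077). The part of these shifts in the differences below was not tested.

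Homologous recombination copies the lost sequence of a broken chromosome from the sister chromatid, so it works in cells that have replicated their DNA. The ends are trimmed, BRCA2 with its partner PALB2 prepares the single strand for exchange, and RAD54 proteins and helicases help strand invasion and the resolution of what follows. The Fanconi pathway uses a core complex to attach ubiquitin to FANCD2 where a crosslink has blocked a replication fork. Non-homologous end joining rejoins ends directly and does not need a sister. In T cells that divide every few hours after antigen contact, stalled forks are a known source of breaks, and many genes of recombination and the checkpoint are known targets of the E2F factors, which drive the genes of S phase.

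Promoters for 27 of the 37 genes were found in the RefSeq table (build GRCm38.p6, 250 bases before to 50 after each start). They were searched on both strands for 4 E2F words, TTTGGCGC, TTTCGCGC, TTTCCCGC and TTTGCCGC. Of the 12 genes that were higher in D8 than in D3, described below, 9 had a promoter and 6 of these held such a word. None of the 4 genes that were lower and 3 of 10 that were not called held one. Among all genes with a promoter, detected here or not, 2.6% held one (704 of 27025). The share among the 9566 tested genes alone was not counted. Median GC content was 59.7% for promoters of the higher genes, 62.2% for the lower, 60.8% for those not called and 52.7% for all promoters. A match of letters is not a binding site, and no binding was measured. The windows below show the matches in the higher genes, read 5′ to 3′ on the gene's strand, with the E2F word in capitals.
Clspn, chr4:126556991-126557018, plus strand: ccgcgtctggGCGCGAAAgctcgaactt
Rad51c, chr11:87404478-87404505, minus strand: tttccagcgcTTTCGCGCctcttgctct
Rad51c, second start, chr11:87404942-87404969, minus strand: ccccgcgaggGCGGGAAAagcaaggggt
Bard1, chr1:71103164-71103191, minus strand: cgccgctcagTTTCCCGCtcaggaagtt
Chek2, chr5:110839821-110839848, plus strand: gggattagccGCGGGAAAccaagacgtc
Topbp1, chr9:103305188-103305215, plus strand: cgctcggttgGCGCGAAAgtcggttccc
Brca2, chr5:150522443-150522470, plus strand: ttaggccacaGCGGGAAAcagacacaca

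The 3 genes that held a word and were not called are shown for comparison, since the same words stand in their promoters.
Fancg, chr4:43010336-43010363, minus strand: ttcttttcagTTTCCCGCggaaccgtct
Xrcc6, chr15:82016313-82016340, plus strand: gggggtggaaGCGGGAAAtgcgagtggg
Msh6, chr17:87975055-87975082, plus strand: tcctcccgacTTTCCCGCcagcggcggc

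Bard1 was the 1 gene with a promoter and a call that also held TTTGAA. This is the core of the CHR element of genes expressed late in the cell cycle. It stood in 1 of 9 higher genes (11.1%), 0 of 4 lower and 0 of 10 not called, below the 20.2% of all genes with a promoter. The 250 bases before the start of Bard1 (chr1:71102973-71103222, minus strand) are given with both words in capitals, TTTGAA first and the E2F word after it.
Bard1 upstream: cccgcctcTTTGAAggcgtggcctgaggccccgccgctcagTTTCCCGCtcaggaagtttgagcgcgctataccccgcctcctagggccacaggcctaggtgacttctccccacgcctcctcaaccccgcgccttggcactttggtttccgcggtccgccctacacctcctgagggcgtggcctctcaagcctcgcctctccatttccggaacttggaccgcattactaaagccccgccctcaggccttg

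Over the whole span of divisions, D8 against D3, 12 of the 28 genes rose, 4 fell and 12 were not called. A gene was called where its Benjamini-Hochberg adjusted p in limma, taken over all 9566 genes, was under 0.05. Of all genes tested, 17.6% were called higher and 18.9% lower, 36.5% in either direction. With the experiment as a block, 13 of the 28 rose and 4 fell (21.1% and 23% of all genes). The median difference was 0.24 log2 units for the 28 genes and 0.00 for all genes. The genes that rose were Clspn, Fancd2, Rad54l, Rad54b, Blm, Rad51c, H2ax, Bard1, Chek2, Topbp1, Brca2 and Palb2, and those that fell were Trp53bp1, Rad52, Fance and Atm. In 8 genes the difference was over 2-fold (1 log2 unit), and all 8 were higher in D8. For all genes the 5th and 95th percentiles of the difference were -0.84 and 0.89 log2 units. Each of the 16 called genes differed in the same direction in 3 of 3 experiments, as did 7 of the 12 not called. The calls came from these same arrays, so this is not a separate replication. In sorted bulk cells, a different share of cells with a transcript and a different amount of RNA per cell cannot be told apart.

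**Figure D1:**
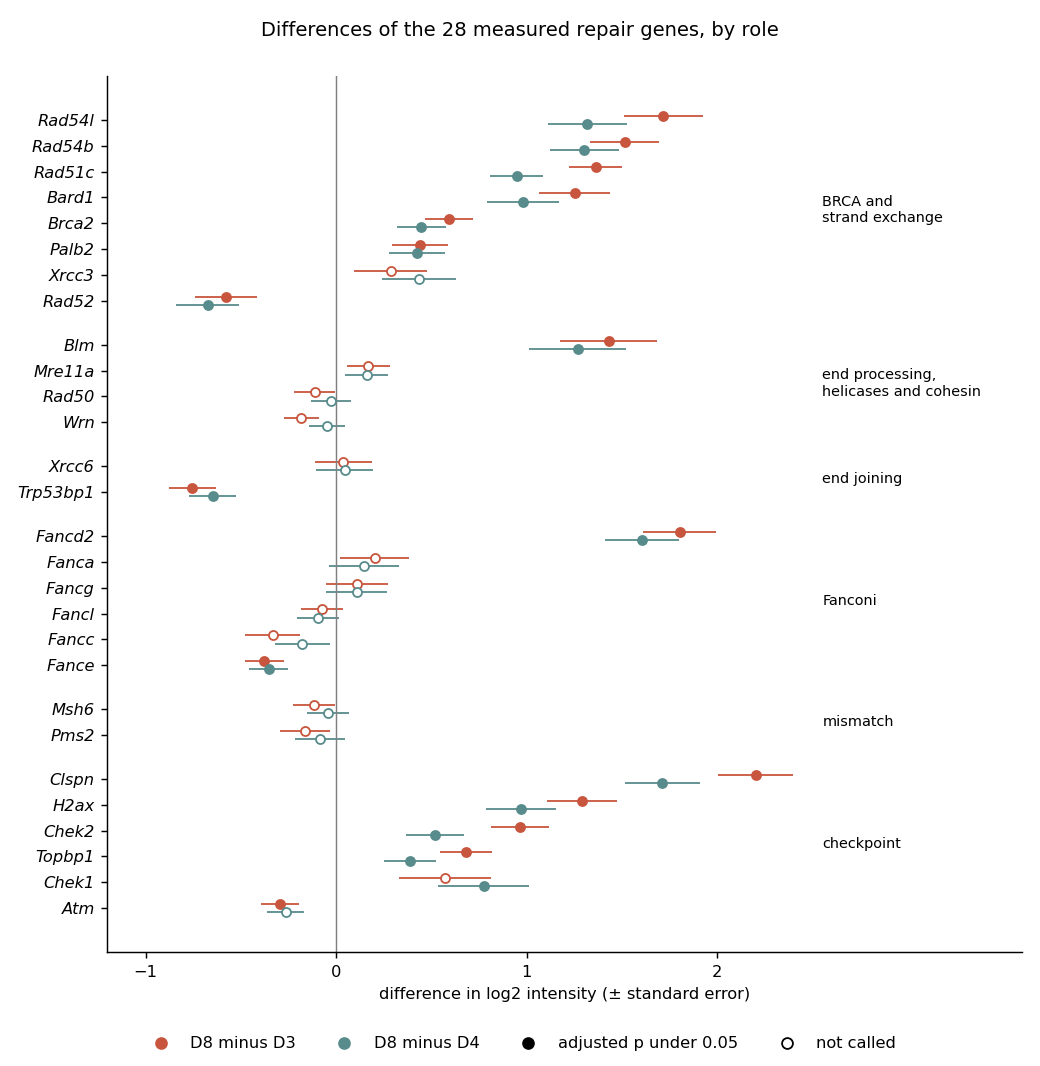
Difference in log2 intensity between D8 and D3 (red) and between D8 and D4 (green) for the 28 measured genes, grouped by role, with bars of 1 standard error. Filled points had an adjusted p under 0.05. The strand exchange and checkpoint groups hold most of the points on the right, while Trp53bp1, Rad52, Fance and Atm lie on the left.

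Of the 10 genes of the BRCA complexes and strand exchange, 8 were measured. Of these 6 rose and 1 fell between D3 and D8 (17.6% and 18.9% of all genes). Rad54l encodes RAD54, a motor that helps the invasion of the sister duplex. Its log2 intensity was 7.80, 6.89 and 7.03 in D3 and 7.86, 7.35 and 7.70 in D4. It was 8.35, 8.01 and 8.00 in D6 and 9.12, 8.93 and 8.81 in D8. The 3 D8 arrays lay above all others, and experiment 1 was the highest in each division. D8 exceeded D3 by 1.72 ± 0.21 (SE, n = 3 each), a fold of 3.29, with a limma adjusted p of 1.88e-05.

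Rad54b, a second motor of the same family, gave 8.09, 7.52 and 7.62 in D3 and 8.31, 7.62 and 7.93 in D4. It gave 8.78, 8.42 and 8.67 in D6 and 9.42, 9.15 and 9.20 in D8. Its D3 and D4 arrays overlapped, and those of D6 and D8 did not. D8 exceeded D3 by 1.51 ± 0.18, a fold of 2.86, with a limma adjusted p of 1.81e-05. Rad51c, whose product works in the complexes that assist strand exchange, gave 6.42, 5.91 and 6.14 in D3, 6.55, 6.51 and 6.66 in D4, 6.99, 6.85 and 7.01 in D6, and 7.76, 7.40 and 7.39 in D8. No array of a later division lay below an array of an earlier one. Between D3 and D8 it rose by 1.36 ± 0.14, with a limma adjusted p of 3.98e-06. Both promoter starts of Rad51c hold an E2F word, as printed above.

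Bard1 encodes the partner of BRCA1 in a ubiquitin ligase. It was detected on 1 of 3 arrays of D3, where its mean of 4.64 is close to background, so the 2.38-fold difference (1.25 ± 0.19) rests on a dim baseline. Brca2 rose by 0.59 ± 0.13, with means of 6.27 in D8 and 5.68 in D3, and its SDs over arrays were 0.05 in D8 and 0.07 in D3. Its call was lost with median centring in place of quantile normalization (limma adjusted p 0.058) and with the mean of its probes (0.054). Palb2, which joins BRCA2 to BRCA1, rose by 0.44 ± 0.15 with a limma adjusted p of 0.032. The Palb2 call was lost without replicate 2 of D3 (adjusted p 0.153), replicate 3 of D3 (0.061), replicate 1 of D8 (0.070) and replicate 3 of D8 (0.094), with median centring (0.25) and without the filter on dim probes (0.068). Xrcc3, whose product binds that of Rad51c, had a difference of 0.29 ± 0.19 that was not called. Brca1 itself had 2 probes, of which the better was detected on 2 of 12 arrays.

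Rad52 went the other way. In yeast its product is central to recombination, and in mammals it anneals single strands and has a lesser part in recombination. Its log2 intensity was 9.01, 9.24 and 9.31 in D3, 9.0, 9.40 and 9.45 in D4, 8.67, 9.01 and 9.16 in D6, and 8.46, 8.50 and 8.88 in D8. All D8 arrays lay below all arrays of D3 and D4. For D8 minus D3 it had -0.58 ± 0.16 with a limma adjusted p of 0.013. It missed the threshold without replicate 3 of D3 (adjusted p 0.051) and without replicate 1 of D8 (0.059).

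**Figure D2:**
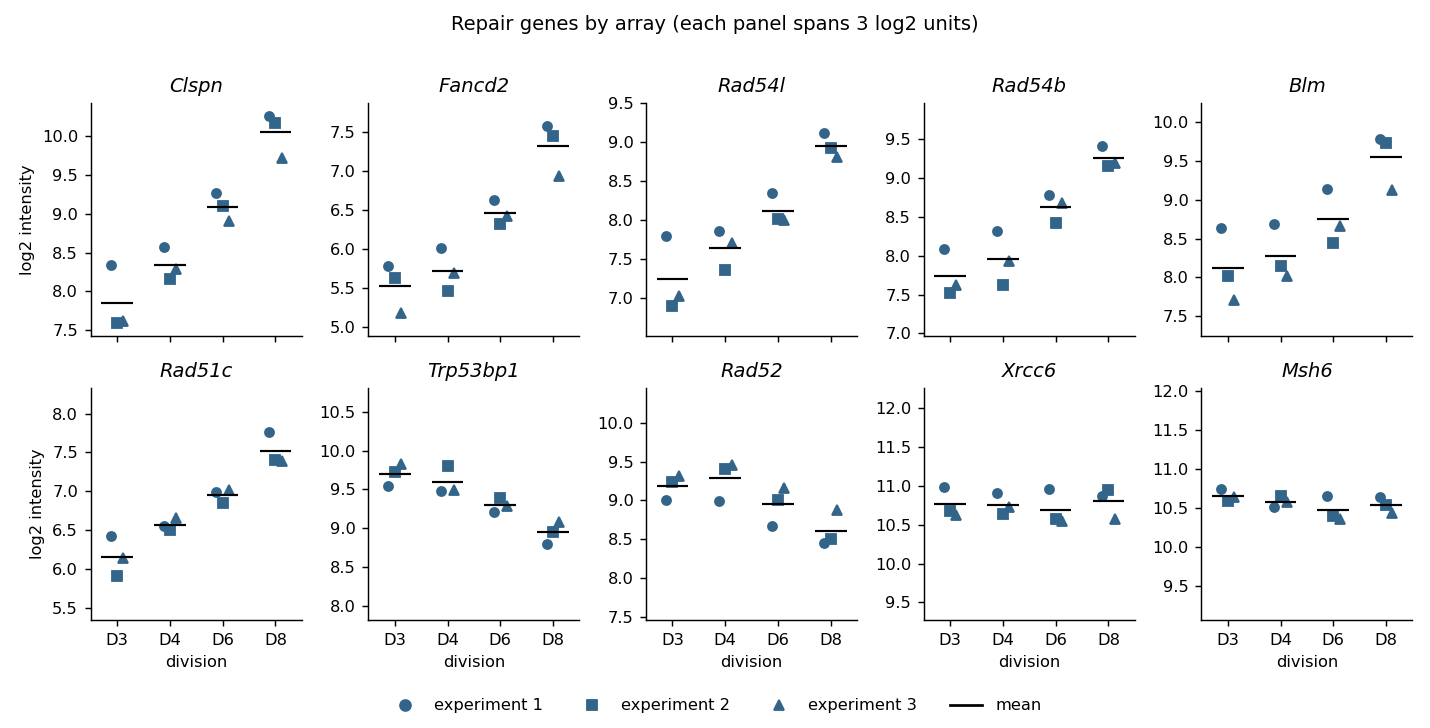
Log2 intensity of 10 genes on each of the 12 arrays, by division, with the experiment as the symbol and the group mean as a bar. Panels span 3 log2 units each. Clspn, Fancd2, Rad54l, Rad54b, Blm and Rad51c climb in steps to D8. Trp53bp1 descends, Rad52 descends only after D4, and Xrcc6 and Msh6 stay within a narrow band.

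Among genes of end processing, helicases and cohesin, 4 of 8 were measured and 1 rose (17.6% of all genes). This was Blm, a RecQ helicase, lost in Bloom syndrome, that dissolves joined recombination intermediates. Its log2 intensity was 8.63, 8.02 and 7.71 in D3 and 8.68, 8.14 and 8.01 in D4. It was 9.13, 8.44 and 8.67 in D6 and 9.79, 9.73 and 9.12 in D8. Every D8 array lay above every D3 array, but D6 and D8 met, since the D6 array of experiment 1 and the D8 array of experiment 3 were nearly equal. Blm rose by 1.43 ± 0.25, a fold of 2.69, with a limma adjusted p of 5.45e-04. Mre11a and Rad50, a nuclease and an ATPase that hold and trim broken ends together, had differences of 0.17 ± 0.11 and -0.11 ± 0.11, and Wrn, the RecQ helicase lost in Werner syndrome, -0.18 ± 0.09. None of these 3 was called. All D8 arrays of Wrn lay below all its D3 arrays, and it was called lower without the filter on dim probes (limma adjusted p 0.038). Nbn, the third subunit of the MRE11 complex, and Exo1, a nuclease of long-range trimming, had probes detected on 0 of 12 arrays.

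In end joining, 2 of 3 genes were measured. Trp53bp1 encodes 53BP1, which sits on chromatin beside a break, shields the ends from trimming and so favours end joining over recombination. Its log2 intensity was 9.54, 9.73 and 9.82 in D3, 9.48, 9.80 and 9.50 in D4, 9.21, 9.39 and 9.29 in D6, and 8.80, 8.95 and 9.08 in D8. Every D8 array was below every array of the other divisions. The difference of D8 from D3 was -0.75 ± 0.12, or 1.69-fold lower in D8, with a limma adjusted p of 2.55e-04, and it was -0.74, -0.78 and -0.74 in experiments 1, 2 and 3. Xrcc6 encodes Ku70, which binds a broken end first in end joining. It gave 10.99, 10.68 and 10.62 in D3, 10.91, 10.63 and 10.73 in D4, 10.96, 10.57 and 10.54 in D6, and 10.88, 10.95 and 10.57 in D8. All groups overlapped, and the difference of D8 from D3 was 0.04 ± 0.15. Xrcc5, for its partner Ku80, was detected on 0 arrays.

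Of 7 Fanconi genes, 6 were measured, 1 rose and 1 fell (17.6% and 18.9% of all genes). Fancd2, the protein to which the core complex attaches ubiquitin, had a log2 intensity of 5.77, 5.62 and 5.18 in D3 and 6.01, 5.45 and 5.70 in D4. It had 6.63, 6.33 and 6.42 in D6 and 7.58, 7.46 and 6.93 in D8. D6 lay above every D4 array and D8 above every D6 array, while D3 and D4 overlapped. Fancd2 rose by 1.80 ± 0.19, a fold of 3.49, with a limma adjusted p of 6.74e-06, and it was 1.81, 1.84 and 1.76 in the 3 experiments. The other 5 measured genes belong to the core complex. Of these Fance, which links the core to FANCD2, fell by 0.38 ± 0.10 (limma adjusted p 0.0097). Fancc had a difference of -0.33 ± 0.14 that was not called (limma adjusted p 0.088), although all its D8 arrays lay below all its D3 arrays. It was called with the mean of its probes (0.015) and without replicate 1 of D6 (0.042), and its second probe, at -0.36, was called over all probes. Fancl, the ubiquitin ligase, had -0.07 ± 0.11, Fancg 0.11 ± 0.16 and Fanca 0.20 ± 0.18, and these 3 were not called. Fanca was not detected on any D3 array, so its level there is only a bound.

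Both mismatch repair genes were measured and neither was called (36.5% of all genes were called). Msh6, a subunit of a complex that recognises mismatches, gave 10.74, 10.58 and 10.64 in D3, 10.51, 10.65 and 10.57 in D4, 10.66, 10.40 and 10.36 in D6, and 10.64, 10.54 and 10.43 in D8. Its groups overlapped, with a difference of D8 from D3 of -0.12 ± 0.11. Pms2, part of the endonuclease that follows, had -0.16 ± 0.13.

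Of 7 checkpoint genes, 6 were measured, 4 rose and 1 fell (17.6% and 18.9% of all genes). Clspn encodes claspin, the adaptor through which ATR activates CHK1 at stalled forks, and its difference was the largest of the 28. Its log2 intensity was 8.34, 7.60 and 7.62 in D3 and 8.57, 8.17 and 8.30 in D4. It was 9.26, 9.10 and 8.91 in D6 and 10.26, 10.17 and 9.73 in D8. The D3 and D4 arrays overlapped through experiment 1, and every D6 and D8 array stood above the arrays of the division before. The difference of D8 from D3 was 2.20 ± 0.20, a fold of 4.59, with a limma adjusted p of 1.24e-06.

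H2ax, the histone variant that is phosphorylated along the chromatin beside a break, rose by 1.29 ± 0.18, with means of 10.48 in D8 and 9.19 in D3. Chek2, the kinase downstream of ATM, rose by 0.97 ± 0.15 from a dim D3 mean of 5.04. Topbp1, the activator of ATR, rose by 0.68 ± 0.14. Chek1, the kinase that claspin helps to activate, had a difference of 0.57 ± 0.24 that was not called (limma adjusted p 0.078) and was called with the experiment as a block (0.0067). It was also called without replicate 1 of D3 (adjusted p 0.015) or replicate 3 of D8 (0.013). Chek1 was detected on 1 of 3 arrays in both D3 and D4. Atm, the kinase that responds to breaks, fell by 0.29 ± 0.10 (adjusted p 0.029). Its call was lost without replicate 1 (0.073) or 3 (0.10) of D3 and without replicate 1 (0.081) or 2 (0.093) of D8. It was also lost with median centring (0.14), with the mean of its probes (0.20) and with only D3 and D8 in the fit (0.071). Atr had 1 probe, detected on 0 arrays.

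The plain separation of arrays gave a like count. All D8 arrays lay above all D3 arrays for 12 of the 28 genes (22.7% of all genes) and below them for 6 (24.1% of all genes).

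**Figure D3:**
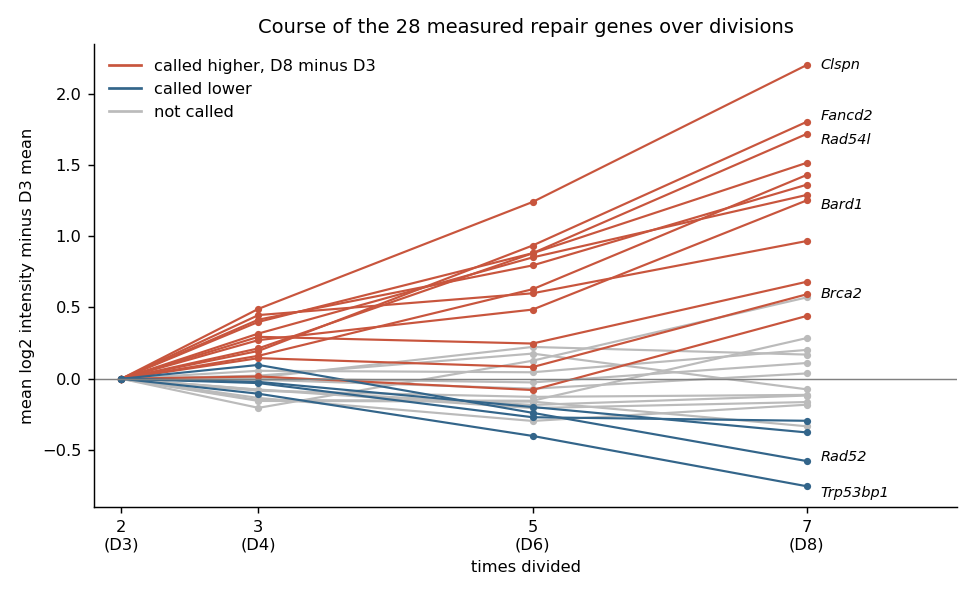
Mean log2 intensity of each of the 28 genes minus its D3 mean, against the number of times divided (2, 3, 5 and 7, as the labels give it). Red lines are genes called higher in D8 than in D3, blue lines genes called lower, grey lines genes not called. Most red lines climb through every division, while those of Brca2, Palb2 and Topbp1 are flat or dip at D6.

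The second comparison set D8 against D4, the division that readily gave memory. Here 13 genes rose and 3 fell (13.9% and 14.6% of all genes, 28.5% in either direction), with a median of 0.27 for the 28 genes and 0.00 for all genes. All D8 arrays lay above all D4 arrays for 13 genes (20.4% of all genes) and below them for 5 (20.5%). The comparison shares its D8 arrays with the comparison with D3, so the values stand side by side and are not independent. The difference of D8 from D4 was 1.71 for Clspn, 1.61 for Fancd2, 1.32 for Rad54l, 1.30 for Rad54b and 1.27 for Blm. These 5 exceeded 2-fold, and the share of all genes beyond 2-fold was not counted for this comparison. Chek1 joined the genes that rose, at 0.77 ± 0.24 (limma adjusted p 0.026). That call was lost without replicate 2 (0.093) or 3 (0.060) of D4 and without replicate 1 (0.12) or 2 (0.088) of D8. Of the genes lower in D8, Rad52 had -0.67, Trp53bp1 -0.65 and Fance -0.35, while Atm had -0.26 and was not called (0.057), but was with the experiment as a block (0.027). With that block Xrcc3, at 0.43, was called as well (0.031, against 0.11 without).

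Some of the smaller differences between D8 and D4 depended on single arrays or on the processing. Topbp1 (0.39, adjusted p 0.048) lost its call without replicate 3 of D3, any 1 of the D4 replicates 1 and 2, any 1 of the D6 replicates, or replicate 1 or 3 of D8, with adjusted p up to 0.197. Palb2 (0.42, adjusted p 0.046) lost it without replicate 3 of D3, replicate 1 or 2 of D4, any D6 replicate or any D8 replicate, with adjusted p up to 0.196. Brca2 lost it without replicate 2 of D4 (0.077), replicate 3 of D4 (0.052) or replicate 1 of D8 (0.059). Chek2 lost it without replicate 1 of D4 (0.065) or replicate 1 of D8 (0.10), and Fance without replicate 3 of D4 (0.073) or replicate 2 of D8 (0.058). Median centring lost the calls of Palb2 (adjusted p 0.15), Brca2 (0.13), Fance (0.13), Chek2 (0.099) and Topbp1 (0.19). The mean of a gene's probes lost Brca2 (0.16) and Chek2 (0.18), and the authors' values lost Palb2 (0.053) and Topbp1 (0.056). Without the filter on dim probes Palb2 (0.092), Topbp1 (0.082) and Chek1 (0.089) were lost, and with only D8 and D4 in the fit Palb2 (0.054) and Topbp1 (0.072). Atm gained a call without background correction (0.030), with another background correction (0.019), with probes detected on all 12 arrays (0.043) and without the filter (0.019). Clspn, Fancd2, Rad54l, Rad54b, Blm, Rad51c, H2ax, Bard1, Rad52 and Trp53bp1 kept theirs under every setting in which they were tested.

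Between neighbouring groups, D4 against D3 gave 0 called genes of 28 in limma, and 0.0105% of all genes. At an unadjusted p under 0.05 there were 4 of the 28 genes and 656 of all genes, and the experiment block also gave 0 (0.679% of all genes called), with 6 of the 28 and 1167 of all genes at an unadjusted p under 0.05. D4 arrays lay above all D3 arrays for 4 genes (5.87% of all genes) and below for 1 (6.01%). Chek2 had a difference of 0.45 ± 0.15 and Rad51c one of 0.41 ± 0.14 at this step, and neither was called.

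From D4 to D6, 2 genes rose and none fell in limma (2.34% and 1.92% of all genes, 4.27% in either direction). They were Clspn, at 0.75 ± 0.20 (adjusted p 0.047), and Fancd2, at 0.74 ± 0.19 (0.046). Rad54b, at 0.67 ± 0.18, missed the threshold (0.053). With the experiment as a block 6 genes rose and 1 fell (5.28% and 4.64% of all genes, 9.92% in either direction). The count of 2 fell to 1 without replicate 2 of D3 and to 0 without replicate 2 or 3 of D4, any 1 of the 3 D6 replicates, or replicate 2 of D8.

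From D6 to D8, 8 genes rose and none fell (4.78% and 4.54% of all genes, 9.31% in either direction). They were Clspn (0.96 ± 0.20), Fancd2 (0.87 ± 0.19), Rad54l (0.84 ± 0.21), Bard1 (0.77 ± 0.19), Rad54b (0.63 ± 0.18), Rad51c (0.57 ± 0.14), Palb2 (0.52 ± 0.15) and Brca2 (0.51 ± 0.13). All but Clspn and Fancd2 belong to the BRCA and strand exchange group. With the block 11 rose and 2 fell (8.83% and 8.54% of all genes, 17.4% in either direction). The count was 2 without replicate 2 of D6, 3 without replicate 3 of D6, 1 without replicate 1 of D8 and 2 without replicate 2 of D8. The steps from D4 to D6 and from D6 to D8 each span 2 divisions by the labels, and the test of their difference in size called 0 of the 28 genes in limma (0.0209% of all genes higher and 0.0105% lower, 0.0314% in all). At an unadjusted p under 0.05 there were 2 of the 28 and 636 of all genes, and with the block 0 were called (0.345% of all genes).

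Over the 4 divisions, the means increased in order for 9 of the 28 genes (16.7% of all genes) and decreased in order for 4 (18.6%). The 9 were Clspn, Fancd2, Rad54l, Rad54b, Blm, Rad51c, H2ax, Bard1 and Chek2. At D6, the 12 genes that rose had covered a median of 51.6% of their way from D3 to D8, with a range of -17.9% for Palb2 to 66.0% for H2ax. Brca2 had covered 13.8%: its means were 5.68, 5.82, 5.76 and 6.27 in D3, D4, D6 and D8. The means of Palb2 were 6.58, 6.60, 6.50 and 7.02. In these 2 partners the arrays of D3, D4 and D6 overlapped, and those of D8 lay above them all. The 4 genes that fell had covered a median of 52.9%, from 41.4% for Rad52 to 91.5% for Atm, whose means were 10.21, 10.18, 9.94 and 9.92.

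Several genes had more than 1 detected probe, which gives a second reading of the same RNA. This held for 13 genes. In 2 of them, Atm and Fancl, the probes were of mixed sign, and none of the 13 had called probes of both signs. The 4 probes of Fancl gave differences of D8 from D3 of -0.12 to 0.15, with 0 called. The 4 probes of Clspn gave differences of D8 from D3 of 0.54 to 2.30, and all were called over all probes. Both probes of Fancd2 (1.64 and 1.80), Blm (1.34 and 1.43) and Rad51c (1.36 and 1.41) were called. For Brca2 and Chek2 the brighter probe was called and the dimmer, at 0.10 and 0.32, was not. Trp53bp1 had probes at -0.75, -0.50 and -0.10, of which the first and second were called. Atm had probes at -0.29, -0.30 and 0.12, so its small difference rests on the probe chosen.

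**Figure D4:**
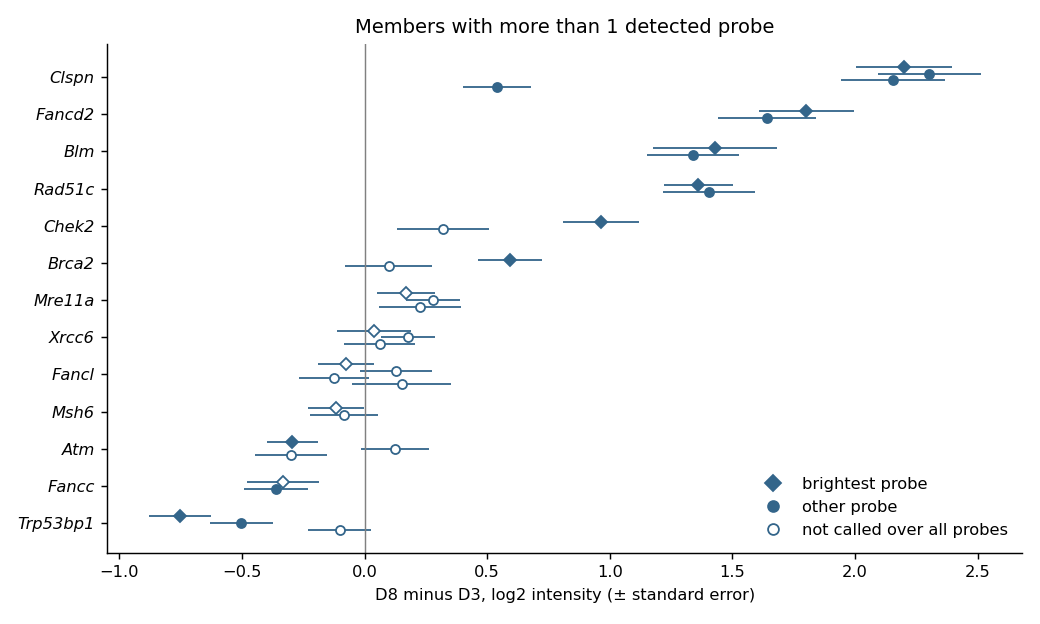
Difference in log2 intensity of D8 from D3 for each detected probe of the 13 genes with more than 1, with bars of 1 standard error. Diamonds are the brightest probe, which the tests use, circles the other probes, and filled symbols were called over all probes. Clspn and Trp53bp1 each have a probe that moved less than the rest.

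Further genes of the same pathways, listed by function, were read in the same fit. Of 44 other recombination and Fanconi genes, 33 were measured, 14 rose and 4 fell between D3 and D8 (17.6% and 18.9% of all genes), with a median of 0.30. Brip1, a helicase that binds BRCA1, rose by 1.57 ± 0.17, Rad51ap1, which aids strand exchange, by 1.09 ± 0.12, and Fanci, the partner of FANCD2, by 0.69 ± 0.13. Rev3l, the catalytic subunit of translesion polymerase zeta, fell by 1.05 ± 0.11.

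Of 10 other end joining genes measured, 1 rose and 1 fell (17.6% and 18.9% of all genes). They were Lig4, the ligase of the pathway, at 0.37 ± 0.14, and Polm, a gap-filling polymerase, at -0.84 ± 0.16. Lig4 was dim, with its probe detected on 2 of 3 D8 arrays and 1 of 3 D3 arrays, and its limma adjusted p was 0.0488. Of 10 other checkpoint genes, 2 rose and 1 fell (17.6% and 18.9% of all genes). Tipin, a fork protection factor, had 0.75 ± 0.15, and Hus1, a part of the checkpoint clamp, 0.38 ± 0.12. Atrip, the partner of ATR, had -0.71 ± 0.12. The other detected probes of Hus1, at 0.34 and 0.17, were not called. Of 2 other mismatch genes, 1 fell (18.9% of all genes), which was Mlh3, by 0.63 ± 0.11.

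The genes of the replication fork and of mitosis were set beside the repair genes, because both are known to be made in dividing cells. Of 27 measured fork genes 25 rose and none fell between D3 and D8, with a median of 0.98. All 18 measured mitosis genes rose, with a median of 2.29. Of all genes, 17.6% rose and 18.9% fell. Cdc45, a part of the replicative helicase, rose by 1.71 ± 0.16, and Birc5, a subunit of the chromosomal passenger complex, by 2.75 ± 0.22. The part of these shifts in the differences of the repair genes was not tested. From D4 to D6, 16 of the 18 mitosis genes rose and 0 of the 27 fork genes were called (6 with the block), next to the 2 of 28 repair genes. Of all genes 2.34% rose at this step, and 5.28% with the block. From D6 to D8 the counts higher were 17, 15 and 8, and with the block 17, 22 and 11. Of all genes 4.78% rose there, and 8.83% with the block. Leaving out 1 array moved the repair count between 1 and 9.

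**Figure D5:**
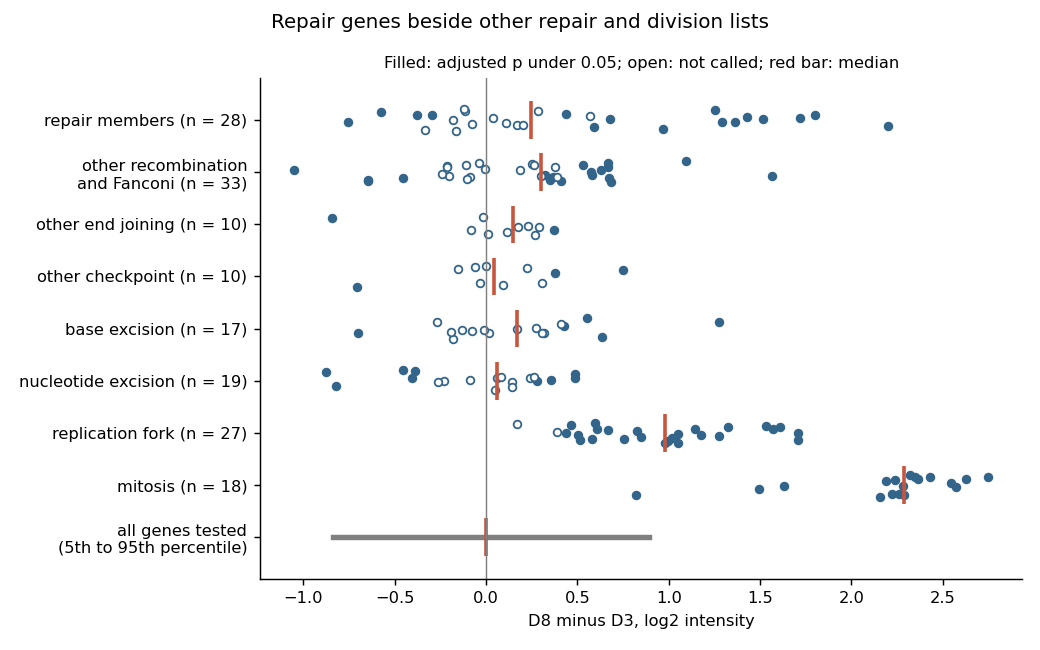
Difference in log2 intensity of D8 from D3 for each measured gene, by list, with filled points for genes with an adjusted p under 0.05 and a red bar at the median. The grey bar spans the 5th to 95th percentile of all genes, -0.84 to 0.89. The repair genes lie on both sides of 0, whereas the replication fork and mitosis genes lie to the right of it.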

How the data were processed

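RNA of 12 samples, 3 from each of D3, D4, D6 and D8, was measured on Illumina bead arrays. Per the file headers and the submitters' processing notes, the authors deposited probe intensity values from BeadStudio 2.0, on a linear scale and not normalized between arrays. A detection p-value for each probe stands beside each intensity in the authors' deposited table. A second deposited table holds background-subtracted intensity values that were brought to array medians of 2.74 to 2.76 by a method not stated in the sources used here, and it served as an alternative. No genome build is given in the sources used here.

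Intensities were corrected, quantile normalized and put on the log2 scale with the neqc function (limma 3.58.1, R 4.3.3, offset 16). Of 45281 probes, 34885 had 1 gene symbol in the platform annotation, and 14972 of these had a detection p under 0.05 on at least 3 arrays. Of the repair genes' 78 probes 49 did. The brightest probe of each gene was tested, giving 9566 genes. All 12 arrays entered 1 lmFit and eBayes model with 4 division means and no covariate, 8 residual degrees of freedom, and adjusted p over all genes. 6 contrasts were tested.

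Arrays of the same experiment number, which the labels name, deviated together: 18 pairs within an experiment correlated at 0.20 to 0.44 after removal of group means, and 36 other pairs at -0.37 to 0.03. The experiment was therefore also fitted as a block. Other alternatives changed the normalization, the filter, the probe rule and the arrays used. The number of arrays limits the precision.

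The genes and lists were chosen with earlier results of these data known. Array values are given for the 6 genes with the largest called difference of D8 from D3, the 2 largest of opposite direction and the 2 brightest not called, and from each other list up to 4 genes with the largest called difference were read.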

Additional observations from a re-analysis of the deposited data

How the results depend on the processing

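The counts of 16 genes called between D8 and D3 and 16 between D8 and D4 stayed within 1.5 times under each alternative, at 13 to 17 and 11 to 18, and the counts of 0 for D4 against D3 and for the difference between steps stayed at 0. Leaving out 1 array gave 13 to 17 (D8 against D3), 11 to 16 (D8 against D4), 0 to 3 (D6 against D4) and 1 to 9 (D8 against D6). Counts of the middle steps were less stable. For D6 against D4, 2 genes were called, and 0 with median centring, with the authors' values, without a filter on dim probes, with the mean of a gene's probes and, in a setting chosen after seeing the data, with every probe tested; with the experiment as a replicate block it was 7. For D8 against D6, 8 genes were called, 2 with median centring, 4 without the filter and 13 with the replicate block. The causes were not tested. The block changed these counts and the calls of Chek1, Atm and Xrcc3 given above. Over single genes, 1168 values were recomputed for D8 against D3 and D8 against D4: 59 lost a call, 14 gained one and 0 called values changed sign. Genes near background (Bard1, Chek1, Fanca, Fancc, Neil3, Lig4 and Cd22 in D3) have the least certain differences, and genes whose probes were not detected could not be compared. Chek2, Fancg and Xrcc3 were detected on 3 of 3 D3 arrays but were also dim there, with means of 5.04, 5.17 and 5.28.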

Other observations

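Excision repair, which removes damaged bases and bulky lesions and needs no sister chromatid, was read in the same fit of D8 against D3. Of 17 measured base excision genes 4 rose and 1 fell (17.6% and 18.9% of all genes), with a median of 0.17. Neil3, a glycosylase known from dividing cells, was detected on 3 of 3 D8 arrays and 0 of 3 D3 arrays, so it was at least 2.09-fold higher in D8 (limma adjusted p 4.57e-06), a bound set against the lowest signal of a detected probe on each D3 array. Mutyh, which removes adenine opposite oxidised guanine, rose by 0.64 ± 0.16 on its brightest probe, and Tdg, which removes thymine from mismatches with guanine, by 0.56 ± 0.15. The other probes of Mutyh, at 0.11 and 0.12, were not called. Smug1, a uracil glycosylase, fell by 0.70 ± 0.11.

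Of 19 nucleotide excision genes 4 rose and 5 fell (17.6% and 18.9% of all genes), with a median of 0.06. Xpc and Ddb2, which find lesions across the genome, fell by 0.88 ± 0.13 and 0.82 ± 0.12. Ddb1, the partner of DDB2, rose by 0.49 ± 0.11, and Gtf2h4, a subunit of TFIIH, by 0.49 ± 0.16.

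Of 10 measured target genes of p53, the factor that the checkpoint kinases activate, 2 rose and 3 fell (17.6% and 18.9% of all genes), with a median of 0.05. Bbc3, which encodes the death protein PUMA, fell by 2.81 ± 0.16, Zmat3 by 0.37 ± 0.11, while Gadd45a rose by 1.21 ± 0.15 and Fas, a death receptor, by 0.63 ± 0.11. The second detected probe of Bbc3 had -0.11 and was not called.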
